A study of Mus musculus with 9 samples.

Results

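Among 38586 CTCF regions on chromosomes 1 to 19 of mouse CD8+ T cells, 1813 were listed in every library except those of cytokine-cultured cells that lack Tcf1 and Lef1. Each of the 1813 regions had a peak in all 4 lists of naive cells and in both lists of wild-type (WT) cells at 72 h. None had a peak in either list of Tcf1/Lef1-deficient (DKO) cells at 72 h. Regions were formed by joining peaks of the 8 CTCF lists that shared at least 1 bp. The members were therefore chosen by the calls themselves, and their presence at 72 h in WT and absence in DKO is a description and not a finding. They are read beside regions of like rank in naive cells that had a peak in all 8 lists, called kept regions.

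The series profiled CTCF by CUT&RUN, in which an antibody-tethered nuclease cuts out the DNA around a bound protein. Naive CD8+ T cells (CD62Lhi, CD44lo-med, TCRbeta+) were sorted from spleen and taken at 0 h or after 72 h in culture with IL-7 and IL-15, and live cells were used. WT and DKO mice alike carried the hCD2-Cre transgene, which acts in lymphocytes, and the Rosa26-lsl-GFP reporter, and GFP+ cells were sorted in every group. The DKO mice carried floxed Tcf1 and Lef1 alleles besides, and their cells are labelled Tcf1-/-Lef1-/-. Each of the 4 groups (WT 0 h, DKO 0 h, WT 72 h, DKO 72 h) had 2 CTCF libraries, and 1 IgG library came from WT cells at 0 h. Ages were not given in the labels used here. The labels do not say that replicates came from separate animals, so their spread may be technical. Peak lists hold no expression values, so neither the deletion nor the cell type could be checked here.

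CTCF is a zinc-finger protein that binds a long DNA motif and stops the cohesin ring as it extrudes chromatin loops, which places CTCF at loop anchors and at insulators. Sites differ widely in strength, and strong sites tend to be bound in most cell types. Tcf1 (encoded by Tcf7) and Lef1 are HMG-box factors that bend DNA and maintain T cell identity. IL-7 and IL-15 sustain the survival and slow division of naive and memory CD8+ T cells.

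The lists differed in length, and an absent peak shows only that none was called. Naive lists held from 30309 to 32587 peaks. At 72 h the WT lists held 17335 and 26630 peaks, and the DKO lists 10339 and 16234. Every CTCF list began at a fold enrichment of 4, where the fold is the authors' ratio of a peak to its local background. Of the 5 IgG peaks, 2 lay on chromosomes 1 to 19 and 0 overlapped a member, which is too few to gauge background.

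Members made up 11.8% of the 15415 regions that had a peak in all 4 naive and both WT 72 h lists. The exact 95% interval of this share ran from 11.3% to 12.3% and covers counting error only. Of the rest of these regions, 9363 had a peak in both DKO 72 h lists and 4239 in 1 of them, which was replicate 2 at 4109 regions and replicate 1 at 130. Members were 7.61% of the 23839 regions found in all 4 naive lists and 4.7% of all regions. The mirror case, a peak in all 4 naive and both DKO 72 h lists and in neither WT 72 h list, was met by 4 of 9551 regions (0.0419%). The count of members depended most on 2 libraries. Leaving out a library drops a condition of the rule, so the count could only rise. It was 5692 without WT 72 h replicate 1, the shorter WT list, and 5922 without DKO 72 h replicate 2, the longer DKO list. Leaving out any of the other libraries gave from 1827 to 1943.

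The imbalance between the 2 directions was far smaller, or turned, when lists were given the same length. Lists of equal length leave about as many regions over in each direction largely by construction. The counts below therefore do not show whether DKO cells had lost CTCF peaks at 72 h. With the 10339 peaks of smallest p in each of the 4 lists at 72 h, 377 regions were listed in WT and not DKO, against 401 in DKO and not WT. These were 4.46% and 4.94% of the regions that could have been called in each direction. Of the 377, 129 (34.2%) were among the 1813 members. The other members are not among them because a WT 72 h peak lay beyond the first 10339, so this count says nothing of whether CTCF was lost there. With all 8 lists cut to 10339 peaks, 114 regions were listed in WT and not DKO at 72 h and 81 the other way. The members are therefore called by the rule, as regions listed in WT and not in DKO at 72 h. In the pair of 72 h lists of nearest length, 2047 of the 15554 naive regions found in WT replicate 1 (13.2%) were absent from DKO replicate 2. In the other direction, 1451 of 14958 (9.70%) were absent. The gap between these 2 counts is fixed by how many naive regions each list held. The WT list of this pair was the longer (17335 against 16234 peaks), so the gap does not measure a genotype difference.

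Members were mostly weaker than the kept regions in naive cells already, and ranked a little below the middle of the naive lists. Each peak was given a rank percentile within its list from the authors' −log10 p, with 100 for the smallest p, and the 4 naive lists were averaged. The median naive rank percentile was 43.9 over members (middle 50% from 32.9 to 57.9, range 6.69 to 95.2), against 82.3 over the kept regions and 59.95 over all regions in the 4 naive lists. The share of members fell steadily with rank. Of regions with a naive rank percentile of 20 to 30 that were in both WT 72 h lists, 56.3% (246 of 437) were members, and at 40 to 50 it was 29.8% (377 of 1263). At 60 to 70 it was 9.27% (219 of 2362), and at 90 to 100 it was 0.491% (14 of 2853). Kept regions took the opposite course, from 7.78% at 20 to 30 to 94.8% at 90 to 100.

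**Figure D1:**
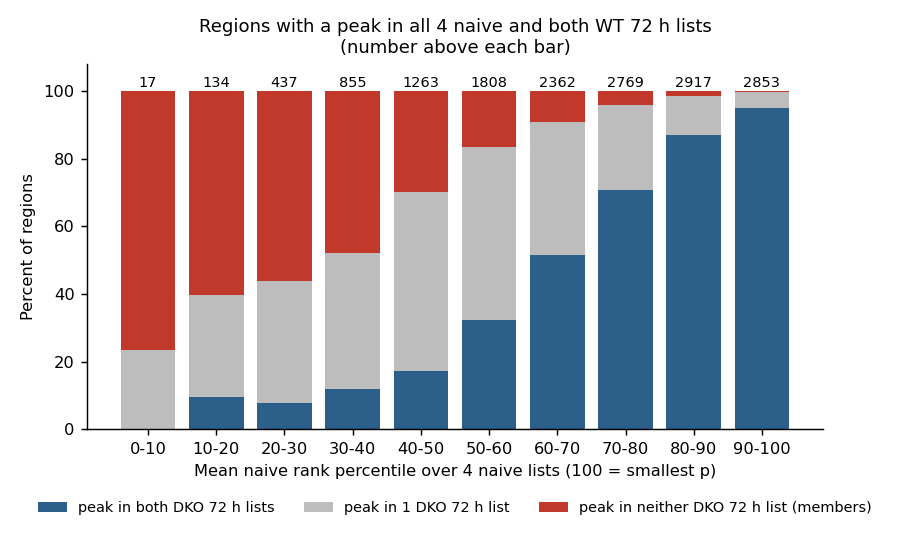
Share of regions (y axis, percent) that had a peak in both, 1 or neither DKO 72 h list, by mean naive rank percentile (x axis), among regions in all 4 naive and both WT 72 h lists. Members (red) run from 76.5% of the 17 weakest regions to 0.491% of the 2853 strongest.

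The same order held with the authors' fold in place of rank. Among regions whose mean naive fold was 6 to 8, 54.99% (430 of 782) were members. At a naive fold of 12 to 16 the share was 9.54% (294 of 3081), and at 24 or above it was 0.0728% (3 of 4122).

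Naive peaks of members had similar median heights in both genotypes. The median fold over the 1813 members was 10.1 and 9.19 in the WT libraries and 9.04 and 9.64 in the DKO libraries at 0 h. Single members ranged from 4.01 to 56.5 in these libraries. At 72 h the median fold in WT was 5.39 and 7.5, nearer to the lowest listed fold. The WT 72 h fold was below every WT naive fold at 1252 members (69.1%), and 77.5% of all regions in the 4 naive and both WT 72 h lists behaved so. The weaker WT 72 h peak had a fold under 5 at 685 members (37.8%).

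Within 1 band of naive rank, members were lower than kept regions in WT cells at 72 h too. At a naive rank percentile of 40 to 50, median folds of the 377 members at 0 h were 10.6 and 9.78 in WT and 9.66 and 10.3 in DKO. The 218 kept regions of this band had 10.9 and 10.1 in WT and 9.77 and 10.97 in DKO, so the naive medians of both sets lay close together. At 72 h the members had 5.56 and 7.5 in WT, against 6.64 and 10.2 at the kept regions, whose DKO values were 5.18 and 6.81. The median change of WT cells from 0 h to 72 h was -0.65 on the log2 scale at members and -0.34 at kept regions. Since the rule used the 72 h calls, these values carry no test.

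**Figure D2:**
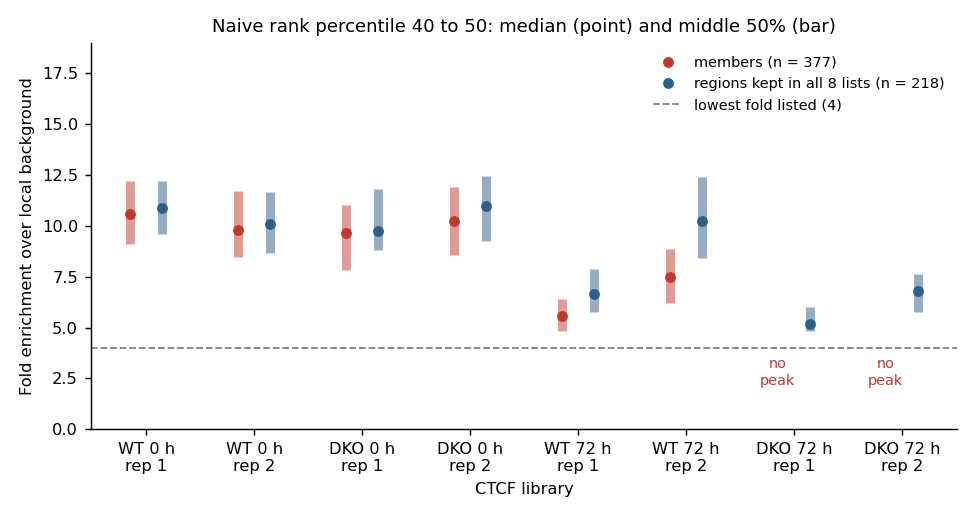
Fold enrichment (y axis) in each CTCF library (x axis) for members (red) and kept regions (blue) with a naive rank percentile of 40 to 50. Points are medians, bars the middle 50% of regions; at 0 h the sets lie together, and at 72 h in WT the members' medians (5.56 and 7.5) lie below those of the kept regions (6.64 and 10.2).

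The members nearest the edge of the rule were close in naive rank to the regions just outside it. The 20 members with the lowest WT 72 h fold had a weaker WT peak of fold 4.002 to 4.09. The 20 regions left out by a DKO 72 h peak of the lowest fold had DKO peaks of fold 4.01 to 4.02. Both sets were picked for low fold, so the likeness of these folds is built in. Their median naive rank percentiles were 48.8 and 46.3. Also outside were 3981 regions in all 4 naive lists with a peak in 1 WT 72 h list and no DKO 72 h list, and 2894 with no peak at 72 h at all.

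Few members stood high in the WT 72 h lists. Each region was placed by the worse of its 2 positions in these lists, counted from the smallest p. Up to position 2000, 1 of 1467 regions was a member, and from 2001 to 4000 it was 9 of 1608 (0.560%). From 8001 to 10339 it was 70 of 2046 (3.42%), and from 14001 to 16234 it was 351 of 1657 (21.2%). In all, 129 members had both WT 72 h peaks within the first 10339, the length of the shorter DKO list, and 774 within the first 16234, the length of the longer one. The 129 were 1.53% of the 8444 regions that stood so high, and 85.6% of those regions were kept. Taken the other way, 3 of 8116 regions (0.0370%) within the first 10339 of both DKO 72 h lists had no WT 72 h peak, in WT lists that were longer.

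**Figure D3:**
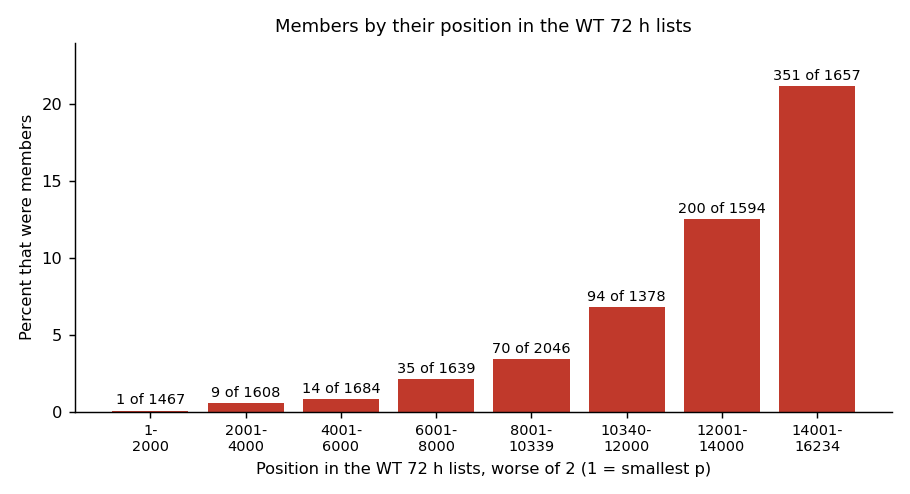
Percent of regions that were members (y axis) by the worse of the 2 positions in the WT 72 h lists (x axis, 1 is the smallest p), among regions in all 4 naive lists. The share climbs from 1 of 1467 regions to 351 of 1657.

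The member ranked highest in WT cells at 72 h was chr5:148134487-148135733 (mm9, 1247 bp). Its fold was 56.5 and 36.2 in naive WT, 18.3 and 16.1 in naive DKO and 10.1 and 24.03 in WT cells at 72 h. Both naive DKO values lay below both naive WT values. It stood at positions 1135 and 542 of the WT 72 h lists, and the nearest region with a DKO 72 h peak lay 3.45 kb away, centre to centre. It was also the member of highest naive rank.

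At chr12:88151195-88152343 the DKO minus WT difference at 0 h was the lowest of all members. Its fold was 38.5 and 31.3 in naive WT, 4.24 and 7.63 in naive DKO and 17.9 and 19.8 in WT cells at 72 h. This difference was -2.61 on the log2 scale. The value of DKO replicate 1 was near the lowest listed fold, and that of replicate 2 was higher.

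A similar order was seen at chr4:10696970-10697836, with 24.3 and 23.5 in naive WT, 11.4 and 10.9 in naive DKO and 13.1 and 20.5 in WT cells at 72 h. At chr2:26599661-26600446 the folds were 16.5 and 17.6 in naive WT, 10.5 and 11.4 in naive DKO and 13.4 and 20.2 in WT cells at 72 h. At chr13:113214201-113215711 they were 16.02 and 8.25, 7.91 and 6.81, and 7.13 and 12.2. In each of these 3 regions the naive DKO values lay below the WT values, by a narrow margin in the last.

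The naive groups lay closer together at 2 regions of chromosome 3. The region chr3:83601055-83602193 had naive folds of 10.3 and 11.2 in WT and 8.41 and 10.01 in DKO, and 10.5 and 17.5 in WT at 72 h. The region chr3:121253067-121253548, 482 bp wide, had 19.6 and 20.9 in naive WT, 14.4 and 19.5 in naive DKO and 12.9 and 23.1 in WT cells at 72 h. The nearest WT and DKO values at 0 h lay closer together than the replicates did.

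The other 3 of the 10 highest-ranked members did not have lower naive values in DKO. At chr13:95745667-95747061 naive WT folds were 7.69 and 5.88 and naive DKO folds 12.04 and 8.89, with 6.69 and 8 in WT at 72 h. At chr10:84038678-84040571 the WT values were 5.73 and 5.12 and the DKO values 10.9 and 11.3, with 4.96 and 6.72 in WT at 72 h. At chr5:135164465-135165231 the WT values were 8.75 and 17.6 and the DKO values 20.2 and 9.63, so the replicates differed more than the genotypes. Of the 10, naive DKO values lay below both WT values at 7, above at 2 and among them at 1. Over all regions in the 4 naive lists, both DKO folds lay below both WT folds at 15.1% and above at 28.2%. The 10 were picked by WT 72 h rank among regions without a DKO 72 h peak. These counts are therefore a description. None of the 10 had both WT 72 h folds above both naive WT folds.

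**Figure D4:**
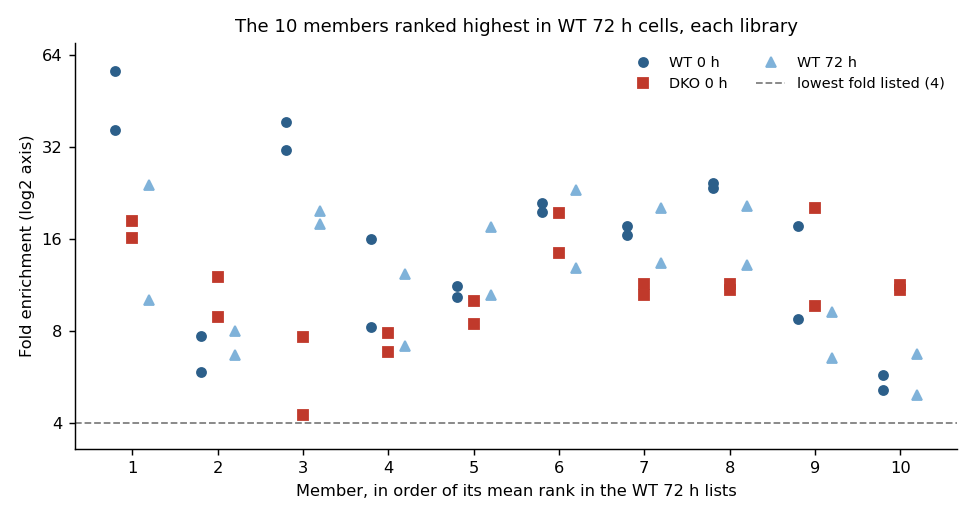
Fold enrichment (y axis, log2) of the 10 members ranked highest in the WT 72 h lists (x axis, in that order), with 1 point per library. Naive DKO values (squares) lie below both naive WT values (circles) at 7 of the 10, and at 15.1% of all regions in the 4 naive lists. None had a DKO 72 h peak.

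One region joined this group when members were ordered by the worse of their 2 positions. It was chr5:136178603-136179276, with 15.2 and 20.6 in naive WT, 5.09 and 8.99 in naive DKO and 11.8 and 15.3 in WT cells at 72 h. Naive DKO values were again below the WT values.

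Members of high naive rank had low fold for their rank. Of the members, 169 had a naive rank percentile of 70 or more, and their median naive fold was 14.1 (middle 50% from 11.9 to 17.8). The 7193 kept regions of such rank had a median of 25.3 (20.7 to 32.4). A naive fold under 16 was found at 112 of the 169 (66.3%) and at 363 of the 7193 (5.05%). Their median widths were alike, at 1067 and 1119 bp. At a rank percentile of 90 to 100, the 14 members had median naive folds of 12.5 and 11.8 in WT and 13.2 and 11.4 in DKO, against 35.5, 32.2, 36.3 and 37.8 at the kept regions. The rule rests on lists that begin at a fixed fold, and the part of this in the gap was not tested.

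The 5 members of highest naive rank differed in this. The first, chr5:148134487-148135733, had naive WT folds (56.5 and 36.2) above the medians of the kept regions and naive DKO folds (18.3 and 16.1) below them. The next, chr5:135164465-135165231, had from 8.75 to 20.2. At chr5:111199230-111200314 the fold was 14.7 and 12.9 in naive WT, 17.1 and 11.8 in naive DKO and 4.40 and 4.99 in WT cells at 72 h, at a naive rank percentile of 94.2. At chr19:7114162-7114975 it was 8.83 and 11.6, 9.70 and 8.68, and 4.56 and 6.38. At chr16:91533264-91534463 it was 11.7 and 9.97, 8.66 and 8.74, and 4.02 and 6.33. The last 2 regions held positions of 4713 or better in the WT 72 h lists with folds near the lowest listed.

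Peak heights in naive cells were not used by the rule beyond the presence of a peak, so genotypes were compared there. Both naive DKO folds lay below both WT folds at 475 members (26.2%), against 15.1% of all regions in the 4 naive lists. Both lay above at 347 members (19.1%), against 28.2%. Since weak regions differ from strong ones in this ratio, the shares were also read by naive rank. At 40 to 50, DKO was lower at 29.2% of members and 22.0% of kept regions, and higher at 22.0% and 20.6%. At 50 to 60 it was lower at 23.1% and 18.3%, and higher at 19.4% and 23.5%. At 60 to 70 it was lower at 21.0% and 15.4%, and higher at 23.7% and 25.4%. Naive DKO folds below WT were thus more frequent at members in these 3 bands, by 4.8 to 7.2 percentage points. Across the 9 bands that held both sets, this excess was uneven. It was smallest at 70 to 80, with 0.2 points, and largest at 10 to 20, with 19.5 points but only 13 kept regions. At 30 to 40, which held the most members (409), it was 3.4 points. The median DKO minus WT difference was not lower at members throughout the 3 bands. It was -0.02 at members and -0.03 at kept regions at 40 to 50, 0.00 and 0.03 at 50 to 60, and 0.07 and 0.05 at 60 to 70.

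In a comparison over libraries, the mean log2 fold at members was set against that of kept regions within the middle 80% of the members' naive ranks. The members lay below these regions by -0.42 and -0.46 in WT and by -0.53 and -0.57 in DKO. The means were -0.44 ± 0.025 (SD, n = 2) in WT and -0.547 ± 0.028 (n = 2) in DKO. The DKO minus WT difference was -0.11, or 92.9% of the WT ratio, and the groups did not overlap (exact two-sided permutation test, n = 2 against 2, p = 0.33, the smallest this design allows). That range of ranks held stronger kept regions, with a median rank percentile of 60.8 against 43.9 for the members. Leaving out WT 72 h replicate 1 gave -0.04, and leaving out DKO 72 h replicate 2 gave -0.06. With all lists of equal length it was -0.06 and the groups overlapped (exact permutation test, p = 0.67). With kept regions weighted to the members' ranks, the difference was -0.10 (exact permutation test, p = 0.33). The mean difference was lower at members than at kept regions in all 9 rank bands that held both, but the median was lower in only 6 of the 9. The bands of 40 to 50 and 60 to 70 were among the exceptions. The median over members was -0.03, and 53.1% of members lay below 0. The mean (-0.07) thus lay farther below 0 than the median.

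Naive DKO folds below WT were more frequent at members that stood high in the WT 72 h lists. Of the 129 members within the first 10339 of both lists, naive DKO folds were below WT folds at 57 (44.2%) and above at 19 (14.7%). Over the 7228 kept regions of such standing these shares were 9.96% and 34.2%, but these were stronger in naive cells, with a median rank percentile of 86.5 against 67.2 for the 129. Kept regions at a naive rank percentile of 60 to 70 had 15.4% and 25.4%. Median naive folds of the 129 were 13.2 and 12.98 in WT and 10.95 and 10.7 in DKO. Over the other 1684 members, 24.8% were lower and 19.5% higher in naive DKO cells. These shares carry no test, since an exact permutation test of 2 libraries against 2 cannot go below p = 0.33. The 129 were also picked through the WT 72 h lists, which the rule had used. Their naive shares are therefore a description of a set chosen for high WT peaks.

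With 72 h lists of equal length, naive DKO folds below WT were more frequent at regions listed in WT alone than at those listed in DKO alone. Of the 377 regions then listed in WT and not DKO, naive DKO folds were lower at 130 (34.5%) and higher at 61 (16.2%). Of the 401 listed in DKO and not WT, they were lower at 40 (9.98%) and higher at 149 (37.2%). Over all regions in the 4 naive lists these shares were 15.1% and 28.2%. Over the kept regions they were 10.6% and 33.2%, but these were stronger in naive cells, with a median rank percentile of 82.3. Kept regions at a naive rank percentile of 60 to 70 had 15.4% and 25.4%. Beside that band, DKO folds were more often lower at the 377 and more often higher at the 401, so both sets differed from it. Median rank percentiles were 67.2 for the 377 and 64.2 for the 401. Median naive folds of the 377 were 14.8 and 13.8 in WT and 12.7 and 13.01 in DKO, and those of the 401 were 14.8 and 13.8 in WT and 15.3 and 16.2 in DKO. The mean log2 fold of the 377 minus that of the 401 was 0.0205 ± 0.00444 (SD, n = 2) in WT and -0.295 ± 0.0318 (n = 2) in DKO. The DKO minus WT difference was -0.32 (exact two-sided permutation test, n = 2 against 2, p = 0.33, the smallest possible). Both sets were picked by opposite genotype calls in the 72 h lists, so this difference is a description. Only 129 of the 377 were members, so it does not describe the members as a whole. The 377 lay slightly above the 401 in both naive WT libraries and below them in both naive DKO libraries.

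**Figure D5:**
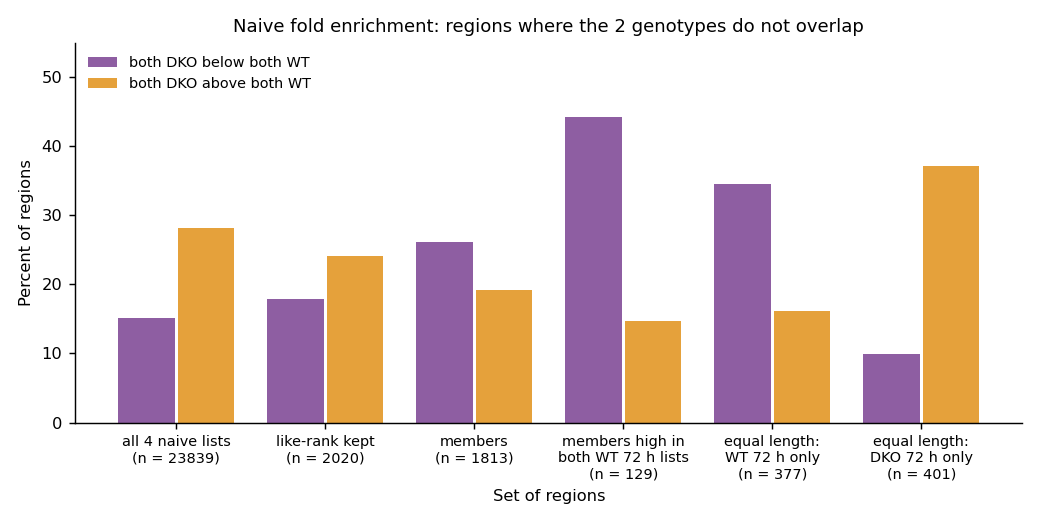
Percent of regions (y axis) whose naive fold in both DKO libraries lay below (purple) or above (orange) both WT libraries, for 6 sets of regions (x axis). Lower DKO peaks make up 15.1% of all regions in the 4 naive lists and 26.2% of members. They make up 44.2% of the 129 high in both WT 72 h lists and 9.98% of the 401 regions listed only in DKO at equal length.

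The naive difference reached both ways at single members. Besides the region on chromosome 12, the lowest were chr17:52607482-52608309, with naive folds of 25.2 and 26.1 in WT and 4.47 and 6.02 in DKO, and chr10:28313369-28314268, with 20.7 and 15.3 in WT and 4.50 and 4.86 in DKO. In WT at 72 h these had 8.14 and 11.3, and 8.46 and 13.9. Naive DKO values were below all WT values of the same region, at 0 h and at 72 h. Their DKO minus WT differences were -2.31 and -1.93 on the log2 scale.

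The highest differences were at chr18:57408993-57409661, chr2:105284036-105284721 and chr11:70050878-70051952. Naive folds at the first were 7.65 and 5.65 in WT and 23.0 and 18.7 in DKO. They were 7.40 and 4.23 against 12.7 and 14.1 at the next, and 7.69 and 6.24 against 17.3 and 13.6 at the last. WT 72 h folds at these 3 regions lay between 4.64 and 7.64. Peaks that were higher in DKO than in WT cells at 0 h were thus among those listed in WT alone at 72 h.

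The position of members along the genome was much like that of kept regions of like rank. Every autosome held members, from 10.3% of the regions in the 4 naive and both WT 72 h lists on chromosome 3 (74 of 719) to 13.7% on chromosome 9 (126 of 918). The nearest region with a DKO 72 h peak lay a median of 19.1 kb away, and 21.9 kb away for the like-rank kept regions. It lay within 5 kb at 330 members (18.2%) and at 17.4% of these kept regions. Another member lay within 50 kb of 356 members (19.6%), and another like-rank kept region lay within 50 kb of 17.7% of those. The number of regions differs (1813 and 2020), and none of these differences was tested.

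Members stood beside one another about as often as kept regions of like rank stood beside a member. A member was next in order at 15.6% of members and at 13.5% of like-rank kept regions, a difference that was not tested. When regions in all 4 naive lists were put in order along each chromosome, 1531 members had no member beside them, and 122 pairs, 10 runs of 3 and 2 runs of 4 were found. A kept region stood on both sides of 254 members (14.0%), on 1 side of 850 (46.9%) and on neither side of 708 (39.1%). For like-rank kept regions these shares were 17.9%, 46.6% and 35.6%. The runs of 4 were chr11:69815117-69863698 (48.6 kb) and chr3:83593895-83751241 (157 kb), and the latter holds the region on chromosome 3 named first above.

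The densest 500 kb window was chr11:69696383-70051952, with 7 members among 21 regions of the 4 naive lists and 4 kept regions. Naive folds of these 7 ran from 6.24 to 14.4 in WT and from 6.62 to 17.3 in DKO, and WT 72 h folds from 4.19 to 8.75. Naive DKO means were below WT means at 0 of the 7. The window chr1:182286088-182705223 held 6 members among 19 regions, with naive folds of 5.47 to 14.0 in WT and 6.19 to 18.9 in DKO, and DKO means were below WT at 1 of the 6. The window chr8:87355207-87596066 also held 6 among 19, with 5.43 to 17.5 in WT and 7.36 to 16.8 in DKO, and DKO means were below at 2 of the 6. Members of these windows were of middling naive rank, with medians of 46.5, 49.3 and 49.8, and the kept regions among them had medians of 72.3, 77.3 and 93.2. The naive shift toward lower DKO peaks was therefore not seen in the densest windows.

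Summits of members lay about as close together as those of kept regions, and members were somewhat narrower. None of these differences was tested. The median width of members was 808 bp, against 907 bp for like-rank kept regions. By rank band it was 692.5 and 827 bp at 20 to 30, 819 and 859.5 bp at 40 to 50 and 872 and 880 bp at 50 to 60. At 70 to 80 members were the wider, with 1027.5 and 1008 bp. Summits of the 2 WT naive libraries lay a median of 41.0 bp apart at members, and those of the 2 DKO libraries 48.0 bp. The mean summits of WT and DKO lay 34.5 bp apart, and WT summits at 0 h and 72 h 39.0 bp. All 6 summits fell within 100 bp of each other at 553 members (30.5%) and at 28.6% of like-rank kept regions. Close summits are in part built in, since regions were formed from overlapping peaks. More than 1 peak of a library was joined into the region at 83 members (4.58%).

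The 4 regions of the mirror case were chr2:118380074-118380677, chr7:31945865-31946571, chr7:50720678-50722381 and chr17:46296739-46298311. Their DKO 72 h folds were 5.71 and 8.22, 5.94 and 4.31, 5.95 and 8.75, and 4.08 and 7.82 in that order. At 0 h, both DKO folds were above both WT folds at the first (17.8 and 11.9 against 7.95 and 11.7) and at the next (8.27 and 8.82 against 4.76 and 6.49). The groups overlapped at the third, with 6.84 and 6.21 against 6.61 and 5.49. At the last, DKO was below WT, with 5.87 and 5.72 against 11.6 and 6.77.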

How the data were processed

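Peak lists of 8 CTCF libraries and 1 IgG library were used. Per the submitters' processing notes, Bowtie2 2.2.5, MACS2 2.1.1 and FastQC were used with build mm9; the control, thresholds and read depths are not stated there. The authors deposited 1 list per library, with the fold (ratio to local background), −log10 p and −log10 q of each peak, and the summit as a distance from the peak start. The deposited folds and −log10 p values are the authors' own and served to describe and rank peaks.

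Peaks on chromosomes 1 to 19 overlapping by 1 bp were merged with pandas 2.3.3, and a region took its peak of smallest p in each list. Rank percentiles were computed within whole lists. The merging and the rule were tested on simulated lists. Differences over libraries used exact permutation. Regions were named by rank in the WT 72 h and naive lists, by largest naive difference and by 500 kb windows; the mirror regions and runs were named after their values were seen. The members and lists were chosen with earlier results of these data known. Groups and replicate numbers came from the titles. Alternatives were lists of equal length, a −log10 q limit of 5, trimmed peaks, a larger overlap, libraries left out, chromosome X, a replicate block, other weightings and windows. Genes, sequences and motifs were not analysed, as no genome or annotation of mm9 was used here.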

Additional observations from a re-analysis of the deposited data

How the results depend on the processing

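The number of members (1813) was 377 with 72 h lists of equal length and 114 with all lists of equal length, against mirror counts of 401 and 81. It was 242 with the WT lists shortened to the DKO lists of the same replicate number, which was chosen after seeing the data. It ranged from 1827 to 5922 when 1 library was left out, where it could only rise. The share of members among the regions that could be called (11.8%) was 12.6% with peaks of −log10 q of at least 5, 4.46% and 1.70% with equal lengths at 72 h and throughout, and 2.52% with shortened WT lists. It ranged from 11.8% to 38.4% with 1 library left out. The share with another member within 50 kb (19.6%) was 16.7% with the −log10 q limit, 2.65% and 0% with equal lengths, 3.31% with shortened WT lists, 4.96% for 10 kb and 50.1% for 200 kb. It ranged from 19.8% to 46.7% with 1 library left out. These shares move with the number of members. The naive DKO minus WT difference (-0.11) stayed negative in all 18 alternatives, from -0.28 with shortened WT lists to -0.04 without WT 72 h replicate 1, and was -2.74 percentiles by rank. It ranged from -0.16 to -0.04 with 1 library left out. Replicate numbers did not pair the libraries: deviations of same-numbered libraries correlated at 0.0091 to 0.0426 over 9363 kept regions. With a replicate block the number of members (1813) and the naive difference (-0.11) were unchanged by construction (exact sign-flip test of 2 pairs, p = 0.5, the smallest possible). This block is among the 18 alternatives. So is the larger overlap, which shared 1811 members with the main rule, so the 18 are not independent checks. The unknown read depths limit what an absent peak can show.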
